A study of Mus musculus with 2 samples.

Results

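Apoe, Clu, Abca1, Abca8a, Lrp1 and Dbi are 6 genes of lipid transport and lipid binding, taken by symbol from the 32285 genes counted in each of 2 single-cell RNA libraries of mouse retina. Every symbol matched 1 gene. The question was where these genes were counted among the retinal cell classes, how their levels differed between the libraries, and how their counts in neurons compared with those of genes that mark Müller glia, as a gauge of Müller RNA outside Müller cells.

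The series asked whether Müller glia can be turned into ganglion cells in the living eye. Mice with a B6.Cg background carried the allele Gt(ROSA)26Sortm9(CAG-tdTomato)Hze/J, were aged 14 weeks, and their retinas were dissociated 8 weeks after they had received AAV, an adeno-associated virus used to deliver genes. The allele is a reporter that makes the red fluorescent protein tdTomato once Cre recombinase has acted, and cells positive for it were sorted. The labels used here name no source of Cre. The library labelled Muller came from the test group, in which about 4.9% of cells were positive and 60000 were collected. The library labelled MullerControl came from the control group, with about 10% positive and 120000 collected. From each, 27000 cells were loaded on a 10x Genomics device. The labels used here do not say what the test or control virus carried, which promoter drove its cargo, or how many mice were pooled. Both groups had received AAV and carried the tdTomato allele, so neither is an untreated retina. With 1 library per group, no test between the groups is possible. All intervals below are 95% intervals that cover counting error only, not the spread between animals.

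The libraries held 12316 barcodes with 25622379 UMIs (unique molecular identifiers, each standing for 1 counted transcript) in Muller and 11309 barcodes with 23549118 UMIs in MullerControl. After filters and removal of likely doublets, 10757 and 9538 barcodes were kept, with medians of 1502 and 1589 UMIs. The libraries shared 40 barcode sequences as deposited, of which 30 were kept in both. A barcode entered a class when it held at least 4 distinct markers of that class and of no other, or, for rods, at least 8 of 12 rod markers. Although both samples were sorted and titled as Müller material, 1054 of 10757 cells (9.80%) in Muller and 620 of 9538 (6.50%) in MullerControl passed as Müller-like. Rod-like cells made up 36.0% and 64.5%, bipolar-like cells 25.5% and 8.52%, cone-like cells 3.37% and 9.34%, amacrine-like cells 5.35% and 1.78%, and microglia-like cells 0.948% and 1.70%. A further 3.28% and 1.72% of cells passed for more than 1 class and 15.7% and 5.79% for none. Levels below are CPM, the UMIs of a gene in 1000000 UMIs of the class.

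Apolipoprotein E, encoded by Apoe, and clusterin, encoded by Clu, are secreted proteins that coat lipid particles. In the central nervous system astrocytes, Müller glia and microglia load such particles with cholesterol and phospholipid through ATP-binding cassette transporters such as ABCA1, and neurons and glia take them up through lipoprotein receptors such as LRP1. DBI, also called acyl-CoA binding protein, carries long-chain acyl-CoA inside cells, and its secreted fragments act on GABA-A receptors. ABCA8A is a transporter of the same family as ABCA1, less well characterised. ABCA1 transcription is induced by the liver X receptor, a nuclear receptor activated by oxidised cholesterol.

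The 2 transporter genes are shown first as sequence, because their patterns across classes were unlike, with Abca8a counted largely in Müller-like cells and Abca1 counted at similar levels in rods and Müller-like cells. The windows are the 250 bases before the gene start listed by RefSeq on GRCm38.p6, both on the minus strand, at chr4:53159896-53160145 for Abca1 and chr11:110095938-110096187 for Abca8a. Each is printed 5′ to 3′, with the letters that matched a searched motif in capitals.
Abca1: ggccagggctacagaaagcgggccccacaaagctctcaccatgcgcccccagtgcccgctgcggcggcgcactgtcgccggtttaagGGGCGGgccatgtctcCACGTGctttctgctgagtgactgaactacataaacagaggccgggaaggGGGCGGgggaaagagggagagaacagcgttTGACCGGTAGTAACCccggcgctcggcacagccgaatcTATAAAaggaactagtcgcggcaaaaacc
Abca8a: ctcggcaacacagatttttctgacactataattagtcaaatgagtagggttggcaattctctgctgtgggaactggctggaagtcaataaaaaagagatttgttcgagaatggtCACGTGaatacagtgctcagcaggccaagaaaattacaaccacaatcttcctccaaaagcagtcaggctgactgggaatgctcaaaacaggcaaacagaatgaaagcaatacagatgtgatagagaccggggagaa

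Both strands of each window were searched for 4 motifs. The core of the liver X receptor element, TNACC, then 5 bases of any kind, then TNACC again, was matched in the Abca1 window from position -67, counting back from the gene start, and 0.621% of 32851 RefSeq promoter windows of the same length held it. Abca1 also held the TATA box TATAAA from -29 (12.4% of windows), the E-box CACGTG from -147 (6.02% of windows) and the Sp1 box GGGCGG from -163 and -97 (32.7% of windows). In the Abca8a window the E-box from -136 was the only match. No match overlapped another, and a match describes letters and is not a binding site shown by these data. Of the 6 genes, 5 had a RefSeq entry, and Clu had none.

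The genes lie on GRCm38, in the GENCODE M21 annotation, at chr7:19696109-19699188 (Apoe), chr14:65968483-65981547 (Clu), chr4:53030787-53159895 (Abca1), chr11:110025634-110095978 (Abca8a), chr10:127538161-127621148 (Lrp1) and chr1:120113280-120121078 (Dbi), and all 6 are protein coding. Lrp1 overlaps the gene Gm16217 on the opposite strand, and whether the counting used strand is not given in the sources used here. Abca8a has a near relative, Abca8b, and how reads shared by such copies were counted is not given either. Abca8b was counted at 241 CPM in the Müller-like cells of Muller and 288 CPM in those of MullerControl.

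The apolipoprotein Apoe was highest in Müller-like cells in both libraries and was lower there in Muller. Its level was 6818 CPM (interval 6707 to 6932, from 14181 UMIs) in Muller and 10756 CPM (10601 to 10912, from 18424 UMIs) in MullerControl. The log2 ratio of Muller over MullerControl was -0.66 (-0.69 to -0.63), a level 0.634 times that of the control library. Microglia-like cells came next in the order, with 3659 CPM in Muller and 4639 CPM in MullerControl, and the intervals of the 2 highest classes did not overlap in either library. In the neuron classes Apoe lay far lower and was higher in Muller. Rod-like cells held 221 CPM in Muller against 75.5 CPM in MullerControl (log2 ratio 1.55, 1.41 to 1.68). In bipolar-like cells the levels were 92.6 and 30.7 CPM (1.58, 1.27 to 1.89), and in cone-like cells 151 and 94.3 CPM (0.68, 0.40 to 0.97). Amacrine-like cells held 123 and 81.3 CPM, with a log2 ratio of 0.57 (0.16 to 0.99). Thus the Apoe ratio lay below 0 in Müller-like and microglia-like cells and above 0 in the 4 neuron classes. Among amacrine-like cells with Malat1 under 5% of UMIs it was -0.82. Malat1 made up 11.2% and 8.03% of all amacrine-like UMIs in Muller and MullerControl. The UMIs behind the -0.82 are not given here, so it is not read as a difference.

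Clu was likewise highest in Müller-like cells, but its second class was cones. Müller-like cells held 5728 CPM (5625 to 5831) in Muller and 6383 CPM (6264 to 6504) in MullerControl, a log2 ratio of -0.16 (-0.19 to -0.12). Cone-like cells held 499 CPM (455 to 545) and 347 CPM (326 to 368), above every other neuron class in both libraries. In rod-like cells the level was 225 CPM in Muller and 86.4 CPM in MullerControl, a log2 ratio of 1.38. Bipolar-like cells, at 211 and 141 CPM, and amacrine-like cells, at 154 and 62.5 CPM, were also higher in Muller. Microglia-like cells were at the low end, with 21 UMIs (58.0 CPM) in Muller and 10 UMIs (12.6 CPM) in MullerControl. Apoe and Clu therefore shared their highest class and parted in microglia-like cells, where Apoe was second in the order and Clu last.

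Of the transporters, Abca8a was concentrated in Müller-like cells, which held 81.1% of its UMIs in Muller and 90.4% in MullerControl. Its level there was 889 CPM (848 to 930) in Muller and 1162 CPM (1111 to 1214) in MullerControl, a log2 ratio of -0.39 (-0.48 to -0.30). The next class, rod-like cells, held 20.2 CPM in Muller and 9.98 CPM in MullerControl. The remaining classes held between 2.53 and 14.5 CPM.

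Abca1, the cholesterol exporter that lipidates apolipoprotein E, showed no such concentration. Müller-like cells held 35.1 CPM (27.5 to 44.1, from 73 UMIs) in Muller and 33.3 CPM (25.2 to 43.1, from 57 UMIs) in MullerControl. Rod-like cells held 34.3 CPM (29.3 to 40.0) and 35.9 CPM (32.1 to 40.0), and microglia-like cells 49.7 CPM (29.5 to 78.6) and 34.1 CPM (22.5 to 49.7). The intervals of these 3 classes overlapped in each library, so their order is not resolved. Bipolar-like cells held 20.7 CPM in Muller and 22.4 CPM in MullerControl, and cone-like cells 13.5 and 19.3 CPM. In amacrine-like cells 28 UMIs were counted in Muller and 2 in MullerControl, a ratio of 3.30 whose log2 interval ran from 0.0082 to 3.44. The log2 ratio in rod-like cells was -0.061 (-0.33 to 0.21) and that in Müller-like cells 0.072 (-0.42 to 0.57), and both intervals included 0.

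The endocytic receptor gene Lrp1 had its highest levels in Müller-like and microglia-like cells, which could not be ordered. In Muller these were 145 CPM (129 to 162) in Müller-like and 138 CPM (103 to 182) in microglia-like cells. In MullerControl they were 156 CPM (138 to 176) and 179 CPM (151 to 212). Amacrine-like cells came next in both libraries, with 61.5 CPM (51.2 to 73.3) in Muller and 87.1 CPM (66.5 to 112) in MullerControl. Bipolar-like cells held 21.4 and 26.1 CPM, and photoreceptors the lowest levels, 5.82 and 2.28 CPM in rod-like cells. In cone-like cells 6 UMIs were counted in each library, too few for a ratio. The log2 ratio was -0.11 (-0.34 to 0.13) in Müller-like cells, -0.36 (-0.82 to 0.10) in microglia-like cells and -0.51 (-0.96 to -0.073) in amacrine-like cells.

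Dbi was highest in Müller-like cells and far lower in the other classes, which differed less among themselves. Müller-like cells held 1253 CPM (1205 to 1302) in Muller and 1862 CPM (1798 to 1928) in MullerControl, a log2 ratio of -0.57 (-0.65 to -0.50). The other 5 classes lay between 94.6 and 180 CPM in Muller and between 78.3 and 135 CPM in MullerControl. The lowest and highest of them had intervals apart. These were cone-like (76.1 to 116) and microglia-like cells (139 to 229) in Muller, and rod-like (72.7 to 84.3) and microglia-like cells (111 to 163) in MullerControl. Rod-like cells showed the widest gap between the libraries, 157 against 78.3 CPM (log2 ratio 1.00, 0.86 to 1.15).

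**Figure D1:**
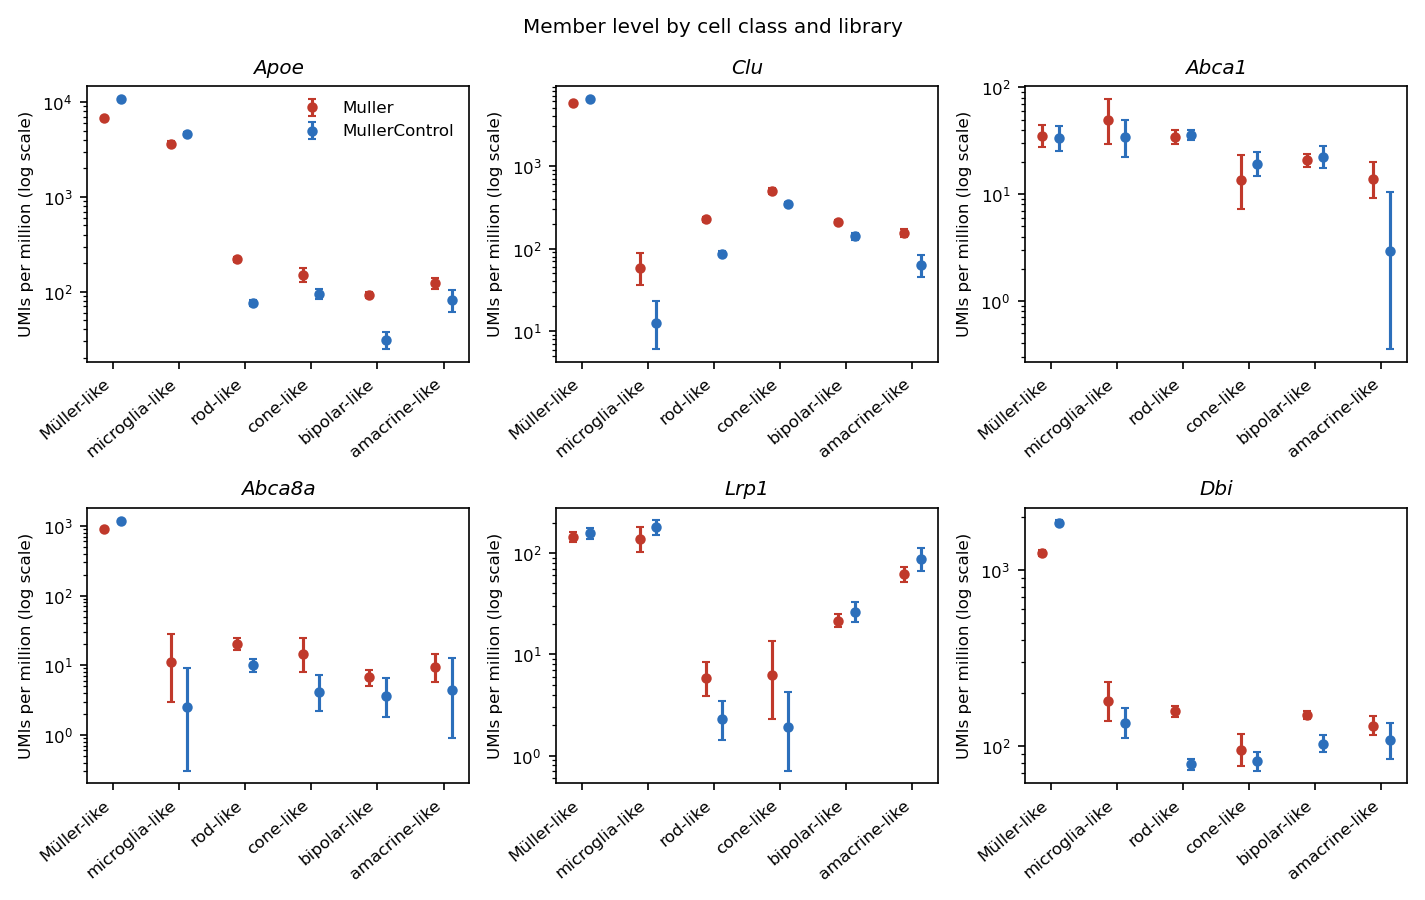
Level of each of the 6 genes (CPM, log scale) in 6 cell classes, in red for Muller and blue for MullerControl, with 95% counting intervals. Apoe, Clu, Abca8a and Dbi sat highest in Müller-like cells, while the Abca1 intervals of Müller-like, rod-like and microglia-like cells overlapped.

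The ratios were read against all genes with at least 20 UMIs in a class, counting a gene as higher or lower past 1.5-fold. In Müller-like cells 7.43% of 11112 genes were higher in Muller and 5.71% lower, and of the 6 lipid genes none was higher and 1, Apoe, was lower. In rod-like cells 14.0% of 11394 genes were higher and 2.54% lower, and 5 of the 6 were higher, all but Abca1. In cone-like cells 7.16% of genes were higher and 7.45% lower, and 2 of the 5 with enough UMIs were higher (Apoe and Abca8a). In bipolar-like cells 4.13% were higher and 7.62% lower, and 2 of the 6 were higher (Apoe and Abca8a). In amacrine-like cells 8.29% were higher and 13.6% lower, and 3 of the 6 were higher (Clu, Abca1 and Abca8a), of which Abca1 and Abca8a rested on 2 and 3 UMIs in MullerControl. In microglia-like cells 11.8% were higher and 8.61% lower, and 1 of the 5 with enough UMIs was higher (Clu). These are descriptions of the 2 libraries, since the genes were chosen with earlier results of the data known.

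The log2 ratios of the 12 Müller markers ran from -0.45 to -0.012 (median -0.29) in Müller-like cells, from 0.62 to 2.75 (median 1.63) in rod-like cells, from 1.11 to 3.01 (median 1.40) in cone-like cells and from 0.32 to 2.75 (median 1.19) in bipolar-like cells. They lay on both sides of 0 in amacrine-like cells, from -0.98 to 2.54 (median 0.62), and in microglia-like cells, from -1.19 to 3.13 (median 1.18). These ranges include markers with under 20 UMIs in a class. Apoe and Dbi lay below the marker range in Müller-like cells, Clu and Abca8a within it. The Dbi interval there overlapped that of the lowest marker, Rlbp1 (-0.51 to -0.38). In cone-like cells the ratios of Apoe, Clu, Abca1 and Dbi lay below the range. Its top there, Aqp4, rested on 4 and 1 UMIs and its bottom, Car14, on 11 and 17 UMIs. The Car14 interval (0.052 to 2.16) overlapped those of Apoe, Clu, Abca1 and Dbi, so their place below the markers is not resolved. The part of Müller RNA in the ratios of the lipid genes was not tested.

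**Figure D2:**
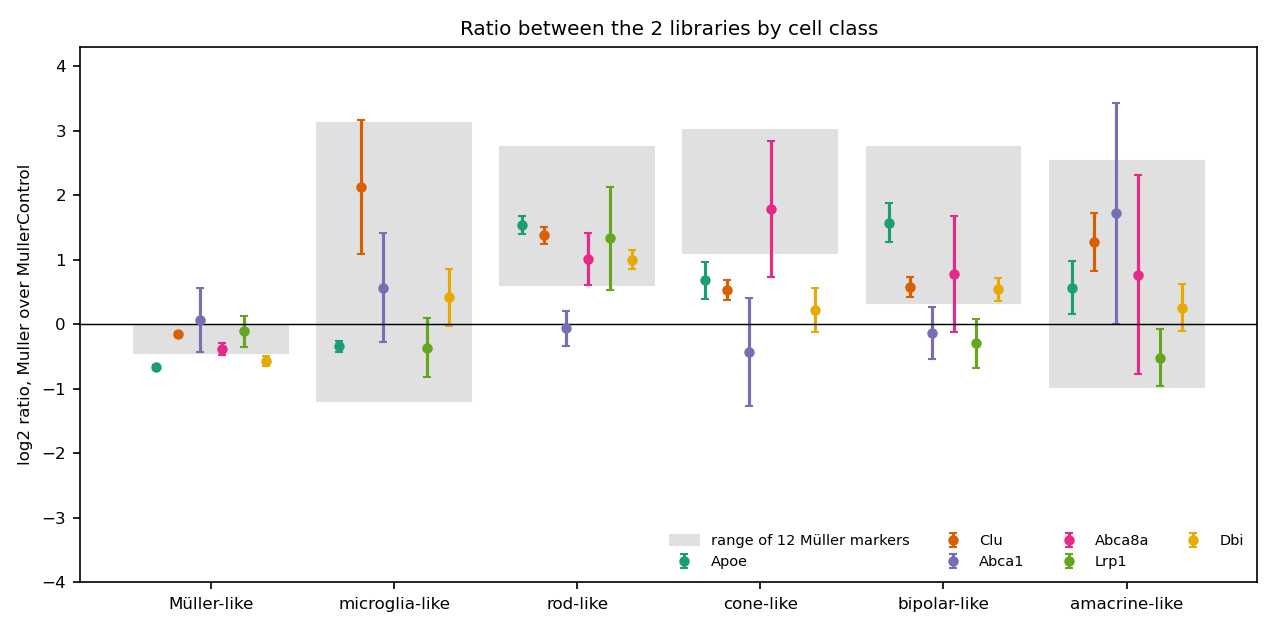
Log2 ratio of Muller over MullerControl (vertical axis) for each gene in each class, with 95% counting intervals. Grey blocks give the range of the 12 Müller markers, and points are left out where under 20 UMIs were counted (Lrp1 in cone-like and Abca8a in microglia-like cells). The plotted ratios of Apoe lay below 0 in Müller-like and microglia-like cells and above 0 in the neuron classes. The amacrine-like one turned to -0.82 among cells with Malat1 under 5% of UMIs, a subset whose UMIs are not given here.

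The gauge of Müller RNA in neurons sets the level of a gene in a neuron class against its level in Müller-like cells of the same library, as a percent. RNA from 1 source would carry its genes over in 1 ratio. The 12 Müller markers of the gauge are also those of the class gate. Müller-like cells had to hold at least 4 of them, and cells of the other classes held fewer. This choice of cells lowers the percent of the markers by construction, while the lipid genes had no part in the gate. A lipid gene above the markers can therefore owe its place in part to the gate, which was not tested. In rod-like cells the 12 Müller markers stood at 1.86% to 3.59% (median 2.98%) of their Müller-like level in Muller and at 0.397% to 1.44% (median 0.796%) in MullerControl. Summed, they amounted to 603 CPM in the rod-like cells of Muller and 219 CPM in those of MullerControl, against 19798 and 24439 CPM in Müller-like cells. Every marker was counted in rods at a higher percent in Muller.

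Apoe and Abca8a in rods fell inside the marker range in both libraries. Apoe stood at 3.24% in Muller and 0.702% in MullerControl, and Abca8a at 2.27% and 0.859%. Clu, at 3.92% and 1.35%, was above all 12 markers in Muller and above 11 of 12 in MullerControl. Its interval in Muller (3.68 to 4.17) overlapped that of the top marker, Rlbp1 (3.20 to 4.04). In MullerControl the Clu interval (1.26 to 1.45) overlapped that of Spc25 (1.07 to 1.46). Lrp1, at 4.02% and 1.46%, was just above the top marker with intervals that overlapped it. Dbi, at 12.5% (11.6 to 13.6) in Muller and 4.21% (3.88 to 4.56) in MullerControl, was above every marker. Abca1 stood at 97.7% (74.2 to 129) and 108% (81.5 to 143), so rods held as much of it per UMI as Müller-like cells did.

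**Figure D3:**
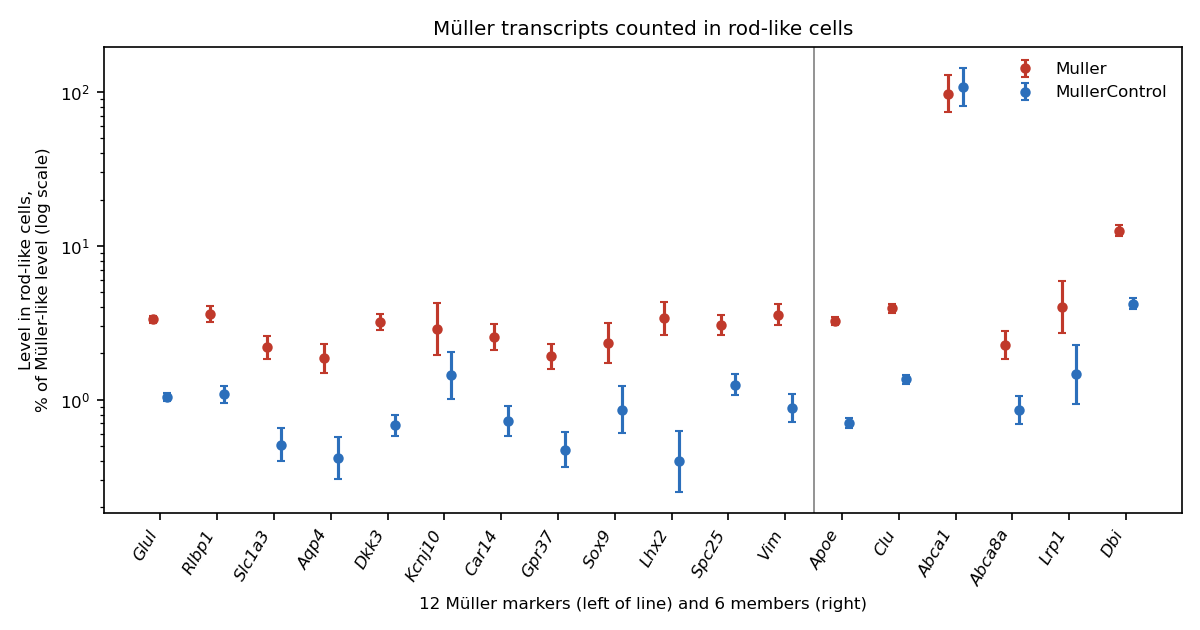
Level in rod-like cells as a percent of the level in Müller-like cells of the same library (log scale), for 12 Müller markers left of the line and the 6 lipid genes right of it, with 95% intervals. Apoe and Abca8a lie among the markers, Dbi stands at 12.5% and 4.21%, and Abca1 near 100% in both libraries.

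Outside rods the order of the genes on this gauge changed. In cone-like cells no Müller marker passed 1.97% in Muller or 0.671% in MullerControl, whereas Clu stood at 8.71% (7.95 to 9.54) and 5.43% (5.10 to 5.78), Dbi at 7.55% and 4.39%, and Apoe at 2.21% and 0.877%. In bipolar-like cells the markers reached 6.59% and 5.16%, Lrp1 stood at 14.8% (12.3 to 17.8) and 16.7% (13.0 to 21.5), and Dbi at 11.98% and 5.51%. Apoe in bipolar-like cells, at 1.36% and 0.285%, lay inside the marker range. In amacrine-like cells Lrp1 stood at 42.5% (34.5 to 52.4) and 55.9% (42.3 to 74.0), above markers that reached 22.1% and 20.4%. Counted above all 12 markers in both libraries were thus Clu and Apoe in cones and Lrp1 in bipolar-like and amacrine-like cells. So were Lrp1 in rods and cones, and Dbi and Abca1 in rods, cones and bipolar-like cells. For Dbi in the bipolar-like cells of MullerControl, however, the interval (4.91 to 6.19) included the top marker. For Apoe in the cone-like cells of Muller the interval (1.88 to 2.60) included the top marker, Vim. In the cone-like cells of MullerControl the Apoe interval (0.781 to 0.984) overlapped that of Vim (0.445 to 1.01). Lrp1 in cone-like cells rested on 6 UMIs in each library. Its intervals, 1.92 to 9.67 in Muller and 0.552 to 2.78 in MullerControl, also overlapped those of Vim. In microglia-like cells Apoe stood at 53.7% and 43.1%, Lrp1 at 95.5% and 115%, and the markers at no more than 7.62% and 5.63%. The class gate used these same markers and none of the lipid genes. How far the places above the markers come from the gate was not tested.

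Rod-like cells were also read by how many of the 12 Müller markers each held. Among rods with no marker, Apoe stood at 199 CPM over 2034 cells in Muller and 58.7 CPM over 4716 cells in MullerControl. At 603 and 219 CPM, the 12 markers together come to under 1 UMI in a rod of median depth. A rod without a marker UMI can therefore not be taken as free of Müller RNA. Whether such rods held any, and the source of their Apoe, was not tested. Among rods with 3 markers Apoe was at 492 CPM over 92 cells in Muller and 996 CPM over 44 cells in MullerControl. Dbi went from 123 to 374 CPM in Muller and from 62.9 to 520 CPM in MullerControl between the same cells. Clu went from 211 to 399 CPM and from 79.0 to 283 CPM. Abca1 did not climb with the markers, at 31.9 CPM with none and 17.0 CPM (2 UMIs) with 3 in Muller, and 37.7 and 29.7 CPM (2 UMIs) in MullerControl. In cone-like cells Clu stood at 505 CPM with no marker and 502 CPM with 1 marker in Muller, and at 339 and 368 CPM in MullerControl. Median depth was close among these rods, at 1040 UMIs with no marker and 1258 with 3 in Muller, and 1380 and 1320 in MullerControl.

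Shares of cells with a UMI were compared after each cell had been thinned to 1000 UMIs, leaving out 333 and 165 Müller-like and 1776 and 1800 rod-like cells that were shallower. Before thinning, the median depth of the cells used was 2148 and 3349 UMIs for Müller-like and 1538 and 1666 for rod-like cells. Apoe was then counted in 88.5% (85.9 to 90.7) of Müller-like cells in Muller and 94.1% (91.5 to 96.1) in MullerControl, against 90.6% and 93.1% unthinned. In rods the thinned shares were 15.1% and 5.61%, against 22.1% and 8.65% unthinned, and the source of this Apoe RNA was not tested. Thinned shares of Müller-like cells with a UMI were 86.8% and 89.0% for Clu, 54.8% and 59.6% for Abca8a, and 14.6% and 10.99% for Lrp1. For Dbi they were 49.9% (46.2 to 53.6) in Muller and 68.1% (63.6 to 72.4) in MullerControl. The Dbi intervals did not overlap, while those of Clu, Abca8a and Lrp1 did. The clusters of Müller-like cells described below differed in depth, in Dbi level and in share between the libraries. Their part in the Dbi gap was not tested. Abca1 was counted in 4.85% and 4.18% of Müller-like cells and 2.63% and 2.69% of rods, close to the level of 1 UMI per cell, from which no difference is read. Clu was counted in 39.1% (33.8 to 44.7) of thinned cones in Muller and 25.03% (22.1 to 28.1) in MullerControl. At least 3 of the 6 genes were counted together in 72.0% of thinned Müller-like cells in Muller and 83.1% in MullerControl, and in 1.05% and 0.161% of rods.

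Apoe was spread unevenly over microglia. The 11 of 102 microglia-like cells with the most Apoe UMIs held 80.3% of the class's Apoe UMIs in Muller, and the top 17 of 162 held 71.3% in MullerControl. The corresponding share in Müller-like cells was 44.8% and 31.8%. In 41 microglia-like cells of Muller and 49 of MullerControl no Apoe UMI was counted. A single cell held 19.6% of the microglial Apoe UMIs in Muller, and without the top cell of each library the microglial log2 ratio moved from -0.34 to -0.51. Over all alternatives it ran from -3.39, among cells with Malat1 at least 5% of UMIs, to -0.19, with each cell weighted equally. Malat1 made up 1.98% and 1.60% of all microglia-like UMIs in Muller and MullerControl. The UMIs behind the -3.39 are not given here, so its size is not read.

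Müller-like cells fell mainly into 3 clusters, which differed in depth and in the nuclear RNA Malat1. Cluster 8 was shallow, with medians of 712 and 917 UMIs and Malat1 at 1.58% and 0.452% of UMIs in Muller and MullerControl. Cluster 12 was rich in Malat1, at 23.0% and 16.4%, with medians of 1797 and 1836 UMIs. It raised all 12 Müller markers, yet stayed unnamed in the clustering because its leading genes included Flt1 of the vascular marker list. Cluster 17 was deep, with medians of 4193 and 5101 UMIs and Malat1 at 13.7% and 13.1%. Of the UMIs of all Müller-like cells, cluster 17 held 39.4% in Muller and 65.7% in MullerControl, and cluster 12 held 40.6% and 17.2%. The mix of Müller-like states therefore differed between the libraries.

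Apoe, Clu, Abca8a and Dbi differed among these clusters by more than they differed between the libraries within any of them. Apoe was highest in cluster 17 (10636 CPM in Muller, 13095 CPM in MullerControl), then cluster 8 (6617 and 8945 CPM) and cluster 12 (4021 and 5250 CPM). Clu followed the same order, with 9262 and 7965 CPM in cluster 17, 4822 and 4498 CPM in cluster 8, and 3318 and 3020 CPM in cluster 12. Dbi was highest in the shallow cluster 8 (2798 and 4494 CPM) and lowest in cluster 12 (424 and 533 CPM). Abca8a and Lrp1 had the opposite order and were highest in the Malat1-rich cluster 12, at 1205 and 1727 CPM for Abca8a and 207 and 241 CPM for Lrp1. In cluster 8 they stood at 347 and 500 CPM (Abca8a) and 43.4 and 124 CPM (Lrp1). The clusters were made from the expression of these cells, without the 6 genes among the variable genes, so the differences among them are a description.

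Within each cluster Apoe remained lower in Muller, with log2 ratios of -0.43 in cluster 8, -0.39 in cluster 12 and -0.30 in cluster 17, each nearer to 0 than the -0.66 of the whole class and none past 1.5-fold. Clu changed sign, from -0.16 over the class to 0.10 (-0.014 to 0.21), 0.13 (0.026 to 0.24) and 0.22 (0.17 to 0.26) within the clusters. Dbi was lower by 0.68 and 0.34 on the log2 scale in clusters 8 and 12, and in cluster 17 its ratio was -0.070 (-0.17 to 0.030). Abca8a was lower in Muller by 0.53, 0.52 and 0.46 on the log2 scale in clusters 8, 12 and 17. Lrp1 stood at -1.46 (-2.37 to -0.54) in cluster 8, from 13 and 29 UMIs, and at -0.23 and -0.14 in clusters 12 and 17, with intervals that included 0. All 3 Abca1 intervals included 0. The mix of clusters differed between the libraries, and its part in the class ratios was not tested.

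**Figure D4:**
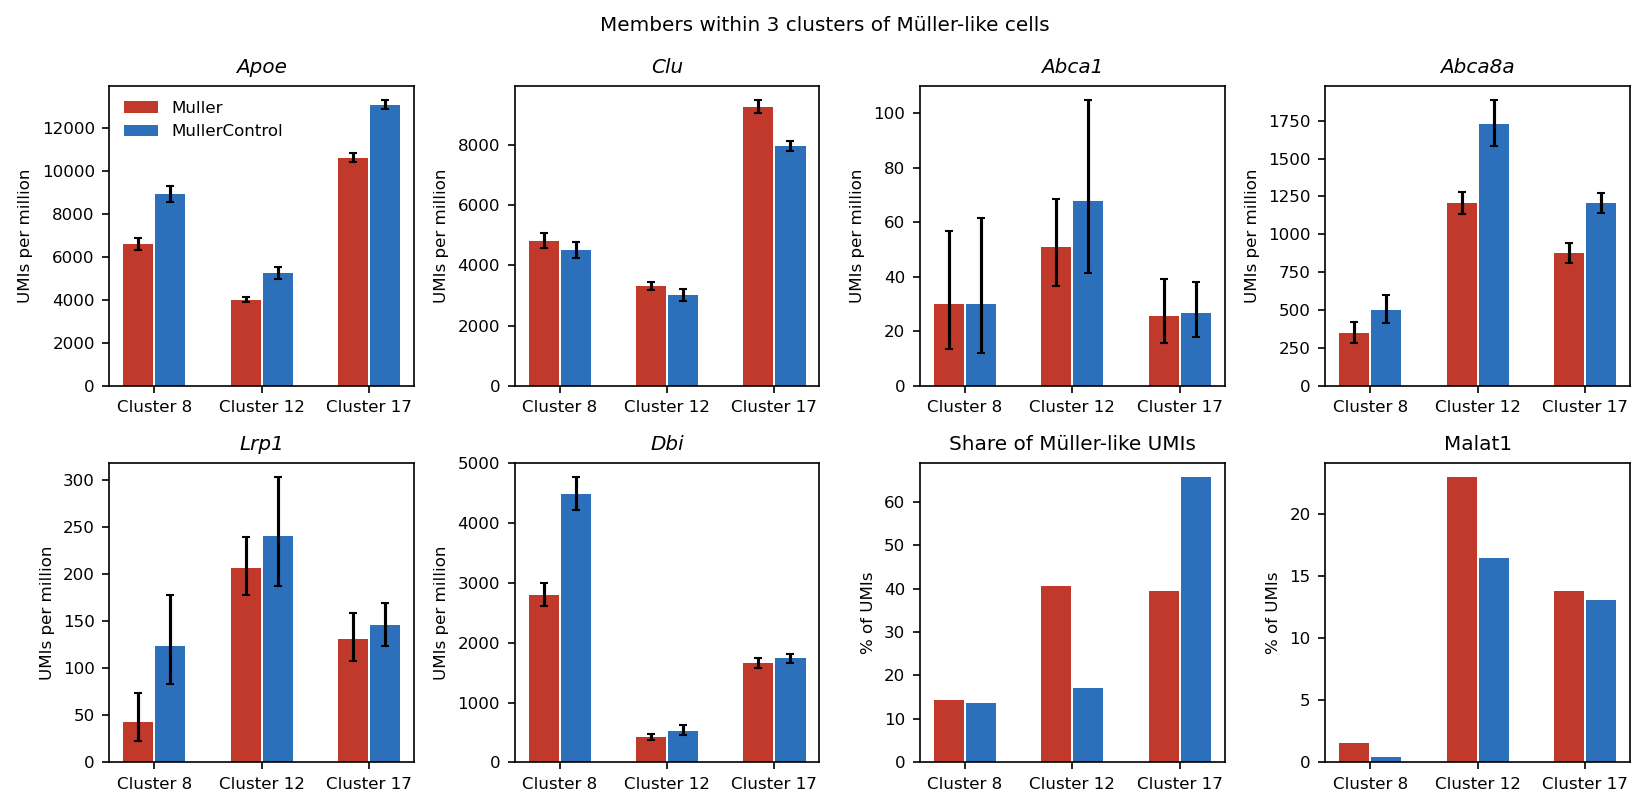
CPM of the 6 genes in 3 clusters of Müller-like cells, with 95% counting intervals, and below right each cluster's share of Müller-like UMIs and its Malat1 share, in red for Muller and blue for MullerControl. Apoe is lower in Muller in each cluster, Clu is not, and cluster 17 holds 39.4% of the UMIs in Muller and 65.7% in MullerControl.

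Among neurons the genes differed between clusters of 1 class. In bipolar-like cells Clu and Dbi were high in cluster 14, led by Gm32585, Hs3st4, Cabp5 and Htr3a. Clu stood there at 367 CPM (341 to 394) in Muller and 352 CPM (305 to 403) in MullerControl. Cluster 0 was as high in Muller, where its 53 cells held Clu at 372 CPM (241 to 549) and Dbi at 297 CPM (182 to 459). In MullerControl cluster 0 held 170 CPM of Clu and 151 CPM of Dbi over 67 cells. In cluster 3, led by Sebox, Car8 and the rod bipolar gene Prkca, Clu stood at 90.9 CPM (78.5 to 105) and 43.9 CPM (29.8 to 62.2). Dbi stood at 271 and 210 CPM in cluster 14 and at 107 and 70.7 CPM in cluster 3. Abca1 had the reverse order, with 46.4 CPM (37.7 to 56.5) and 39.6 CPM (26.3 to 57.2) in cluster 3. Lrp1 in cluster 14 was at 4.42 CPM (9 UMIs) in Muller and 3.45 CPM (2 UMIs) in MullerControl, against 16.6 and 22.6 CPM in cluster 3. The Clu levels of cluster 14 were alike in both libraries, whereas the Clu level of all bipolar-like cells was 1.49 times higher in Muller.

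Cone-like cells split into cluster 11, with Opn1mw as its leading gene and medians of 3180 and 4007 UMIs, and cluster 19, led by Pde6h and Gngt2, with medians of 1651 and 2209 UMIs. Clu stood at 854 CPM (733 to 990) and 526 CPM (465 to 594) in cluster 19 and at 407 CPM (362 to 456) and 318 CPM (297 to 341) in cluster 11. The shallower cluster thus held more Clu per UMI in both libraries, and depth moved with this difference, whose part was not tested. In rods Abca1 was highest in the shallow cluster 6 in MullerControl, at 73.1 CPM (56.1 to 93.8) against 22.4 CPM (18.4 to 27.1) in the main rod cluster 2. In Muller the same clusters stood at 50.4 CPM (38.1 to 65.4) and 27.8 CPM (21.2 to 35.8).

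**Figure D5:**
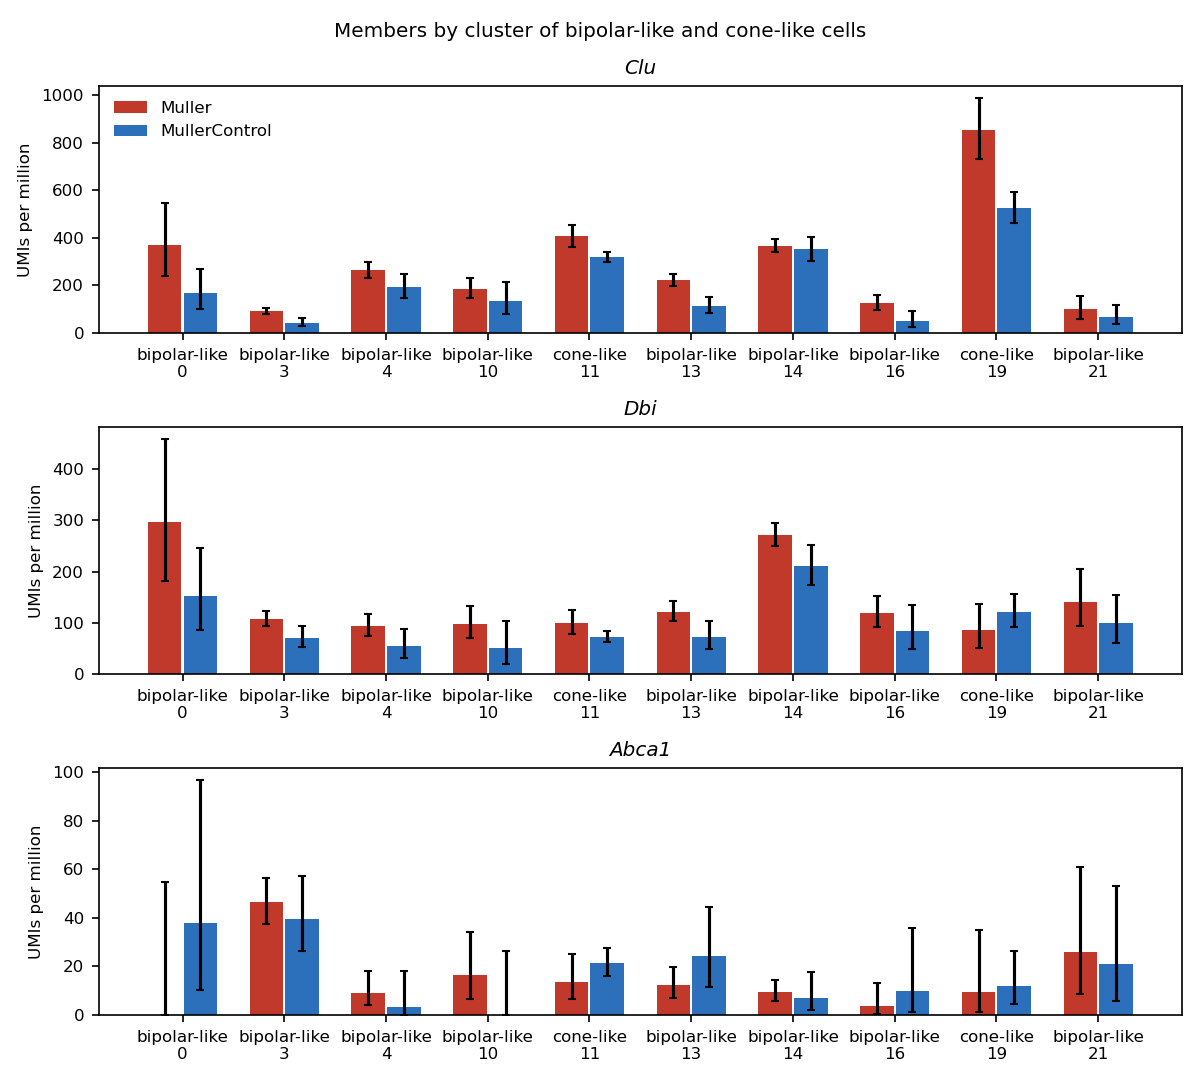
CPM of Clu, Dbi and Abca1 in each cluster of bipolar-like and cone-like cells with at least 50 cells in both libraries, with 95% counting intervals, in red for Muller and blue for MullerControl. Clu and Dbi are higher and Abca1 is lower in bipolar cluster 14 than in bipolar cluster 3, and Clu is highest in cone cluster 19.

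Of 91 lipid handling genes in 6 lists, 71 had enough UMIs in Müller-like cells. Past 1.5-fold, 4 were higher in Muller, among them Fabp3, Lrp12 and Lrp4 with 22 to 48 UMIs each over both libraries, and 3 were lower, among them Apoe and Apoc1. Of all genes in the class 7.43% were higher and 5.71% lower. The median log2 ratio of the 71 was -0.028, and that of all genes measured in the class was -0.028 as well. Apoc1, a small apolipoprotein of lipid particles, stood at 12.5 CPM in Muller and 26.9 CPM in MullerControl (log2 ratio -1.08, -1.76 to -0.40). No gene of the sterol store list (12 measured) or of the sterol sensing list (11 measured) passed 1.5-fold.

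Besides the 6 genes, the list genes named for their size of difference among those with at least 100 UMIs lay within 1.5-fold in Müller-like cells. The largest difference among these was that of Sorl1, a sorting receptor that binds apolipoprotein E, at 249 CPM in Muller and 361 CPM in MullerControl (log2 ratio -0.54, -0.71 to -0.37). Tspo, the outer mitochondrial membrane protein that binds fragments of DBI, stood at -0.46 (-0.76 to -0.16), and Scp2, a sterol carrier, at -0.41 (-0.59 to -0.23). Soat1, which esterifies cholesterol, stood at 0.44 (0.0052 to 0.87). The log2 ratios of Vldlr (0.49), Abca4 (0.44), Abcd4 (-0.36), Insig1 (0.31), Plin3 (-0.29), Abcd3 (-0.26), Ptgds (-0.22), Lrp8 (0.18), Acsl6 (-0.18), Apoo (-0.15), Srebf1 (-0.14) and Insig2 (0.12) had intervals that included 0. In rod-like cells 16 of 66 measured list genes were higher in Muller and none lower, beside 14.0% and 2.54% of all genes, and 5 of the 16 were among the 6 genes above. The median of the 66 was 0.14, against 0.057 for all genes.

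Some list genes had Müller-like cells as their highest class with intervals apart from the next class in both libraries. Besides Apoe, Clu, Abca8a and Dbi these were Abca6, Abca8b, Abcd3, Lrpap1, Sorl1, Lsr, Acsl3 and Srebf1. Acsl3, an acyl-CoA synthetase, stood at 5479 CPM in the Müller-like cells of Muller and 5256 CPM in those of MullerControl, with cones next at 571 and 489 CPM. Microglia-like cells were highest for Apobr, Abca9, Trem2, Tspo, Npc2, Lipa, Stard3 and Mylip, among them the lysosomal cholesterol genes Npc2 and Lipa and the apolipoprotein E receptor gene Trem2. By the same rule amacrine-like cells were highest for Lrp8, Fabp3, Crabp1, Osbpl1a, Lpl and Insig1. Cone-like cells were highest for Acbd6, Fabp7, Rxrg and Scap, and rod-like cells for Abca4 and Ppara. The share of all genes highest in each class was not counted, so no class is read as favoured by the lists.

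Likeness of pattern was measured as Pearson's r of log2(CPM + 10) over the 12 values of 6 classes in 2 libraries, among 9117 genes. These values share libraries, depth and class mix, so r is a description. Apoe was most like Cnp (0.99), Tns3 (0.99) and Cebpd (0.99), Clu most like Acsl3 (0.97), Utp14b (0.97) and Rtn4 (0.96), and Abca8a most like Shisal2b, Cp and Flt1 (each 1.00). Dbi was most like Hes1 (0.99), Timp3 (0.98) and Prdx6 (0.98), and Lrp1 most like Irf2bp2 (0.98), Scarb2 (0.98) and Abhd6 (0.97). The nearest genes to Abca1, Bcdin3d (0.90), Hgsnat (0.89) and Nfic (0.88), were less alike. Among the 6 genes themselves r was highest for Abca8a with Dbi (0.97) and lowest for Clu with Lrp1 (0.11).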

How the data were processed

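Single-cell RNA of tdTomato-positive retinal cells was measured in 2 libraries with 1 library per group. The deposited values are UMI counts per gene and barcode, not normalised. Per the file headers they were written by Cell Ranger 4.0.0. Seurat 4.0.5 and the builds mm10 and GRCh38 appear in the submitters' processing notes without a role. The fewest UMIs in a deposited barcode was 500 in each library.

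Barcodes with under 300 genes or over 20% mitochondrial UMIs were left out (429 in Muller, 905 in MullerControl). Scrublet's automatic threshold marked 2 and 0 barcodes and so did not work, and the barcodes with the highest doublet scores were removed at 0.8% per 1000 barcodes (1130 and 866). Classes were gated on marker lists, with at least 4 distinct markers of 1 class or 8 rod markers, and these numbers were set after the data were seen. In Muller 181 and in MullerControl 83 Müller-like cells held exactly 4 Müller markers, and 487 and 135 cells held 1 marker too few. Clusters (scanpy 1.11.5, Leiden, resolution 1, 2000 variable genes without the 6 genes, 30 components) served as an alternative and for the cell states.

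Counts were summed per class and library and given as CPM with exact Poisson 95% intervals. Log2 ratios had 1 count added to each sum. Shares have exact Clopper-Pearson intervals. A gene was measured in a class with at least 20 UMIs over both libraries, and classes with at least 50 cells in both libraries were compared. Genes named from the lipid lists were the 3 per list with the largest absolute log2 ratio in Müller-like cells among those with at least 100 UMIs, besides those past 1.5-fold, of which some are not reported here. For likeness the 3 genes with the highest r among those with at least 500 UMIs were named. The genes, lists and markers were chosen with earlier results of these data known. The alternatives covered doublets, class assignment, normalisation, filters, thinning and single cells (10 planned kinds for the ratios, and 3 added after the data were seen).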

Additional observations from a re-analysis of the deposited data

Results flagged for a closer look

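The log2 ratio of Apoe between the libraries pointed in opposite directions in different cell classes. It was -0.66 in Müller-like cells. In neurons it was 1.55 for the rod-like, 0.68 for the cone-like and 1.58 for the bipolar-like class. With 1 library per group the difference between classes was not tested. The 12 Müller markers differed between the libraries in the same directions, with a median log2 ratio of -0.29 in the Müller-like class and 1.63 in the rod-like class.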

How the results depend on the processing

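No paired analysis was possible because each group had 1 library. For the same reason no library could be left out, and centred ratios differ from the others only by the class median. In Müller-like cells the 6 log2 ratios kept their side of 0 in all 13 alternatives for Apoe, Abca1, Abca8a and Dbi, and in 11 of 13 for Clu and Lrp1. With clusters in place of the gate, which leaves out the Malat1-rich cluster 12, the ratios were -0.35 for Apoe, 0.15 for Clu, -0.54 for Abca8a, -0.35 for Lrp1 and -0.16 for Dbi, and none of the 6 genes then passed 1.5-fold, against 1 with the gate and 2 with cells weighted equally or with at least 1000 UMIs. Among cells with Malat1 under 5% of UMIs they were -0.41 for Apoe, 0.23 for Clu, -0.53 for Abca8a and -1.48 for Lrp1. Among cells with at least 5% they were -0.70 for Apoe and -0.21 for Clu. Without mitochondrial genes, Malat1 and rod markers in the total, Apoe was at -0.59 and Clu at -0.093. Weighting each cell equally gave -0.72 for Apoe and -0.74 for Dbi, and cells with at least 1000 UMIs gave -0.65 for Dbi. In neurons the Abca8a ratio changed sign, to -0.20 in bipolar-like cells with Malat1 under 5%. In amacrine-like cells it went to -0.20 with either cluster assignment and to -0.11 with Malat1 under 5%. Both main Abca8a intervals already included 0. They ran from -0.12 to 1.67 in bipolar-like cells (57 and 11 UMIs) and from -0.78 to 2.32 in amacrine-like cells (19 and 3 UMIs). Among cells with Malat1 under 5% the amacrine Apoe ratio turned to -0.82. The microglial Lrp1 ratio turned to 1.81 among cells with at least 5%. Over the whole class Malat1 made up 11.2% and 8.03% of amacrine-like UMIs and 1.98% and 1.60% of microglia-like UMIs in Muller and MullerControl. The UMIs behind these subset values are not given here, so neither sign change is read as a difference. The Abca1 ratio, whose interval included 0, ran from -0.36 to 0.19 in rod-like and from -0.92 to 0.54 in cone-like cells. Of the lipid lists, 0 genes were higher with at least 50 UMIs required, against 4 with at least 20. With at least 1 UMI 7 were higher and 5 lower, against 4 and 3. The shares of all genes past 1.5-fold under these other filters were not counted. These counts are therefore not read as a result about the lists. Depth limited Abca1 and, in cone-like cells, Lrp1.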
